A study of Mus musculus with 41 samples.

Results

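The course of a kidney after ischemia was followed between 2 harvests. The comparison takes the 12 libraries of the first cohort that carry the titles UIRI d7 (n = 6) and UIRI d3 (n = 6), out of 41 libraries in the series, and covers every gene in the table. UIRI stands for unilateral ischemia-reperfusion injury, in which the blood supply of a kidney is closed and reopened. Per the series design, male mice of 8 to 10 weeks had 21 min of ischemia of the left kidney at a core temperature of 34 °C. UIRI d3 kidneys were taken on day 3 and UIRI d7 kidneys on day 7. The design gives every group other than Control and UIRI d3 either removal of the uninjured kidney or a sham operation on day 3, so UIRI d7 mice, whose title names no nephrectomy, may have had the sham operation and differ from UIRI d3 in that as well as in time. Neither a strain nor a genotype is named for these mice. Control libraries (n = 6, uninjured) and UIRI+Nx d7 libraries (n = 6, injury with removal of the uninjured kidney) of the same cohort were in the fit. Both groups helped to set its count filter, scaling and spread. Only the Control level is shown beside the injured kidneys. RNA came from a section of the kidney pole, so each library mixes all cell types of that section, and 500 ng were made into libraries of 3′ ends. Nothing in the labels says that each library is a separate animal, so the p values measure the spread between these libraries.

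After ischemia, surviving tubule cells lose their specialised features, enter the cell cycle and refill the tubule, a phase that in mice ends within days to weeks. Blood monocytes enter the injured kidney, turn into macrophages that clear dead cells, and are joined later by antigen-presenting cells and lymphocytes. Tubule cells that do not recover keep making adhesion molecules and chemokines, while fibroblasts lay down matrix.

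Library totals ran from 9271486 to 15611432 counts on day 3 and from 5090418 to 17591854 on day 7. Of 6 library measures, none differed between the days after adjustment (two-sided exact permutation test, smallest possible p 0.00216). The nearest was the share of counts from the mitochondrial genome, at a mean of 4.22% on day 3 and 2.77% on day 7 (exact p = 0.00866, adjusted 0.0519). Kidney markers were present in all 12 libraries, with Slc34a1, the phosphate transporter of the proximal tubule, at no less than 1284 CPM (counts scaled to a common library total), and Umod, which encodes uromodulin of the thick ascending limb, at no less than 775 CPM. UIRI d3 replicate 2 and UIRI d7 replicate 4 lay apart from the other libraries on the first principal component, which held 42.9% of the variance, whereas the days parted on the second, which held 16.8%. The numbers that the table's columns carry put the libraries into 3 blocks, here called 1a, 1b and 2b, and block 2b holds 3 UIRI d3 libraries and no UIRI d7 library.

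Between day 3 and day 7, 17 of 50 genes of S phase and 39 of 55 of G2 phase and mitosis fell. Of the tested genes of macrophages, MHC class II antigen presentation and T and NK cells, 16 of 40, 8 of 21 and 7 of 23 rose. Those were 40%, 38.1% and 30.4% of the members tested, so most did not pass. The share called was smaller in the tubule and matrix lists, such as 6.67% of proximal tubule transporters and 9.09% of matrix glycoproteins and proteoglycans. Of 48795 genes, 15701 had enough counts to be tested with edgeR's quasi-likelihood test, and 409 passed an adjusted p of 0.05 (Benjamini-Hochberg over all genes tested), which is 2.6% of those tested. Of these, 195 were higher on day 7 (1.24%) and 214 lower (1.36%), and the median log2 fold change of all tested genes was 0.01. The fold was over 2 for 138 of the higher and 145 of the lower genes. For 247 of the 409, the 6 and 6 libraries did not overlap, where 2.38% of all tested genes did not. When counts were scaled by library totals alone, the number was 415, of which 66.0% were higher against 47.7% with the main scaling, and the median of all genes moved to 0.11.

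The number of genes called depended on which libraries were fitted. Without the 3 UIRI d3 libraries of block 2b it was 135, with 54 higher and 81 lower, and all 409 genes called with all libraries had the same direction. Within block 1a, with 2 UIRI d3 and 3 UIRI d7 libraries, edgeR called 0 genes, and 1013 had an unadjusted p under 0.05. There 406 of the 406 tested genes of the main calls had the same direction. These genes were called from fits that include the same libraries. The shared direction, here and without block 2b, was therefore largely set by the selection. With the block as a covariate the number was 390, of which 296 were among the 409. Without the pair of libraries that lay apart it was 305 (129 higher, 176 lower). Without UIRI d7 replicate 3 it was 247, and without UIRI d7 replicate 2 it was 263.

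**Figure D1:**
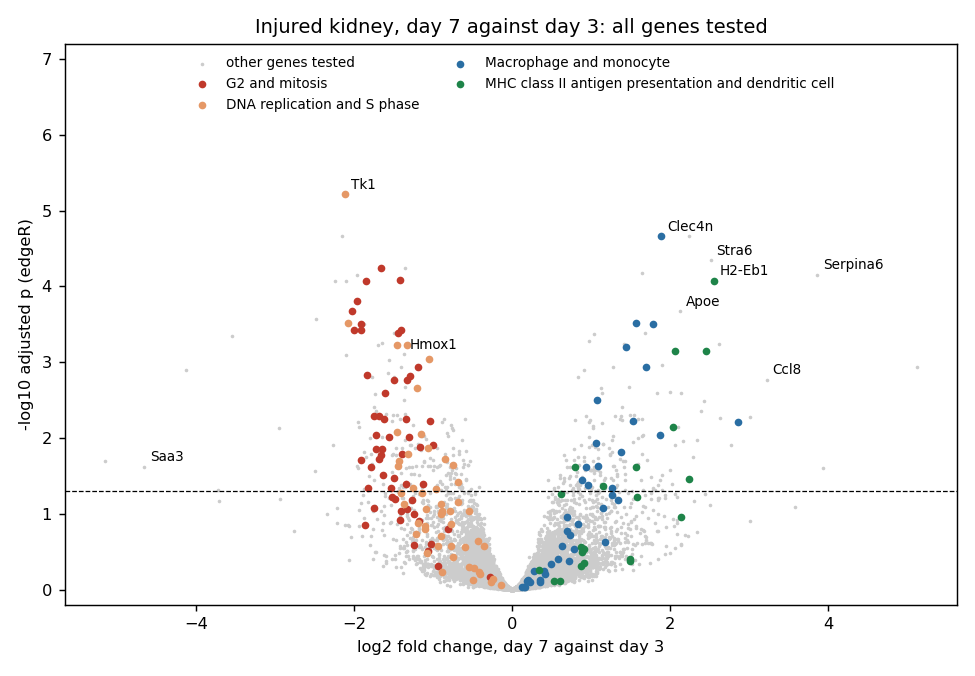
Each point is a gene tested; the x axis is the log2 fold change of day 7 against day 3 and the y axis is -log10 of the adjusted p, with a dashed line at an adjusted p of 0.05. Members of 4 gene lists are coloured: cell cycle genes lie on the left, and macrophage and MHC class II genes on the right, among 409 genes above the line.

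A part of the DNA replication genes fell by day 7. Of the 50 S phase genes tested, 17 fell, 0 rose, and all 50 had a negative log2 fold change, with a median of -0.90 against 0.01 for all genes tested. Tk1, the thymidine kinase that salvages thymidine for DNA synthesis (chromosome 11, 117815526 to 117826092, minus strand on GRCm38), had the smallest adjusted p of all genes tested. Its level was 15.9 to 25.5 CPM on day 3, median 23.4, and 2.98 to 6.42 CPM on day 7, median 5.24 (log2 fold change -2.11, SE 0.22, adjusted p = 6.06e-06). Every day 7 library lay below every day 3 library, and the Control median was 2.27 CPM.

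Rrm2, a subunit of ribonucleotide reductase, which makes deoxynucleotides, stood at 31.1 to 69.2 CPM on day 3, median 53.2, and 8.29 to 21.6 CPM on day 7, median 11 (log2 fold change -2.07, SE 0.31, adjusted p = 3.04e-04). The days did not overlap. Licensing factors, which load the replicative helicase onto origins, fell as well. Cdt1 had 37.7 to 60.5 CPM on day 3, median 51.4, and 9.3 to 25.5 CPM on day 7, median 21.2 (log2 fold change -1.33, SE 0.22, adjusted p = 5.90e-04). Mcm3, a subunit of that helicase, measured 51.3 to 77 CPM on day 3, median 74, and 26.6 to 40.9 CPM on day 7, median 31.4 (log2 fold change -1.05, SE 0.18, adjusted p = 9.09e-04). Mcm10, which helps to activate it, measured 7.08 to 13.6 CPM on day 3, median 11.4, and 3.27 to 4.94 CPM on day 7, median 4.07 (log2 fold change -1.46, SE 0.24, adjusted p = 5.90e-04). In each of these genes the highest day 7 library was below the lowest day 3 library. The day 7 medians of Tk1, Rrm2, Cdt1 and Mcm3 were above their Control medians, at 2.27, 5.26, 14.1 and 8.19 CPM, while that of Mcm10 was below its Control median of 7.2 CPM.

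Summed over the S phase list, libraries held 1524 to 1981 CPM on day 3 and 842 to 1264 CPM on day 7, against 518 to 701 CPM in Control. The days did not overlap, and day 7 remained above Control in every library. Within block 1a the median log2 fold change of the list was -0.94, with 0 genes called. Without the block 2b libraries 8 members fell, with a median of -0.82.

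Most genes of G2 phase and mitosis fell. Of 55 tested, 39 fell and 0 rose, and all 55 had a negative log2 fold change, with a median of -1.50. Among the regulators of entry into mitosis, Foxm1, a transcription factor that switches on many mitotic genes, measured 23.2 to 38.7 CPM on day 3, median 30.4, and 9.41 to 14.2 CPM on day 7, median 11.2 (log2 fold change -1.41, SE 0.19, adjusted p = 8.31e-05). Ccnb1, the cyclin B1 that drives entry into mitosis, measured 17.7 to 40.2 CPM on day 3, median 25.2, and 4.02 to 11.6 CPM on day 7, median 6.61 (log2 fold change -1.90, SE 0.29, adjusted p = 3.76e-04). Ccna2, cyclin A2 of S and G2 phase, measured 21 to 41.9 CPM on day 3, median 27.9, and 4.25 to 12.8 CPM on day 7, median 8.08 (log2 fold change -1.91, SE 0.29, adjusted p = 3.14e-04). The 6 day 7 libraries were below the 6 day 3 libraries for all 3 genes.

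Plk1 encodes a kinase that builds the spindle, and it stood at 59.3 to 133 CPM on day 3, median 96.7, and 17 to 32.2 CPM on day 7, median 21.7 (log2 fold change -2.0, SE 0.31, adjusted p = 3.75e-04). Birc5, or survivin, part of the complex that corrects chromosome attachments, had 104 to 198 CPM on day 3, median 148, and 29.3 to 51.4 CPM on day 7, median 37.6 (log2 fold change -1.96, SE 0.28, adjusted p = 1.54e-04). Top2a, the topoisomerase that untangles chromosomes, had 149.9 to 313 CPM on day 3, median 228, and 51.6 to 139.9 CPM on day 7, median 91.2 (log2 fold change -1.33, SE 0.24, adjusted p = 0.0017). None of these overlapped between the days, and Birc5 and Top2a were among the most strongly counted members. Exit from mitosis depends on the anaphase-promoting complex, whose activator Cdc20 measured 28.9 to 42.8 CPM on day 3, median 35.4, and 7.51 to 18.2 CPM on day 7, median 8.23 (log2 fold change -1.85, SE 0.25, adjusted p = 8.37e-05). Its ubiquitin-conjugating enzyme Ube2c measured 44.8 to 72.8 CPM on day 3, median 61.4, and 7.88 to 20.8 CPM on day 7, median 14.6 (log2 fold change -2.02, SE 0.29, adjusted p = 2.13e-04). For cytokinesis, Kif23, a motor of the central spindle, measured 43.4 to 60.8 CPM on day 3, median 49.5, and 7.81 to 21.6 CPM on day 7, median 16.9 (log2 fold change -1.66, SE 0.21, adjusted p = 5.74e-05). These too were lower in every day 7 library. Mki67, the proliferation marker Ki-67, fell with overlap, at 15.8 to 58.7 CPM on day 3, median 32.3, and 3.32 to 21.2 CPM on day 7, median 11.8 (log2 fold change -1.68, SE 0.33, adjusted p = 0.00514).

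Ect2, which triggers the contractile ring, measured 9.09 to 27.7 CPM on day 3, median 15.6, and 0.927 to 8.43 CPM on day 7, median 4.13 (log2 fold change -1.91, SE 0.45, adjusted p = 0.0194), and without UIRI d7 replicate 3 its adjusted p was 0.0513. Iqgap3, Knstrn, Cdca3 and Aunip are not in the lists and act at the spindle, the centrosome or in dividing cells. They were among the 12 largest falls that the naming rule took. That rule takes only called genes without overlap and with a group mean of at least 5 CPM. Iqgap3 had 19.6 to 31.1 CPM on day 3, median 27, and 3.58 to 8.02 CPM on day 7, median 5.06 (log2 fold change -2.24, SE 0.30, adjusted p = 8.37e-05). Aunip, a partner of the Aurora A kinase, had the largest fall among these 12, at 9.16 to 23.2 CPM on day 3, median 18.3, and 2.02 to 6.08 CPM on day 7, median 2.79 (log2 fold change -2.48, SE 0.37, adjusted p = 2.68e-04). Knstrn changed by -2.10 and Cdca3 by -1.96 on the log2 scale, both without overlap, as the rule required.

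**Figure D2:**
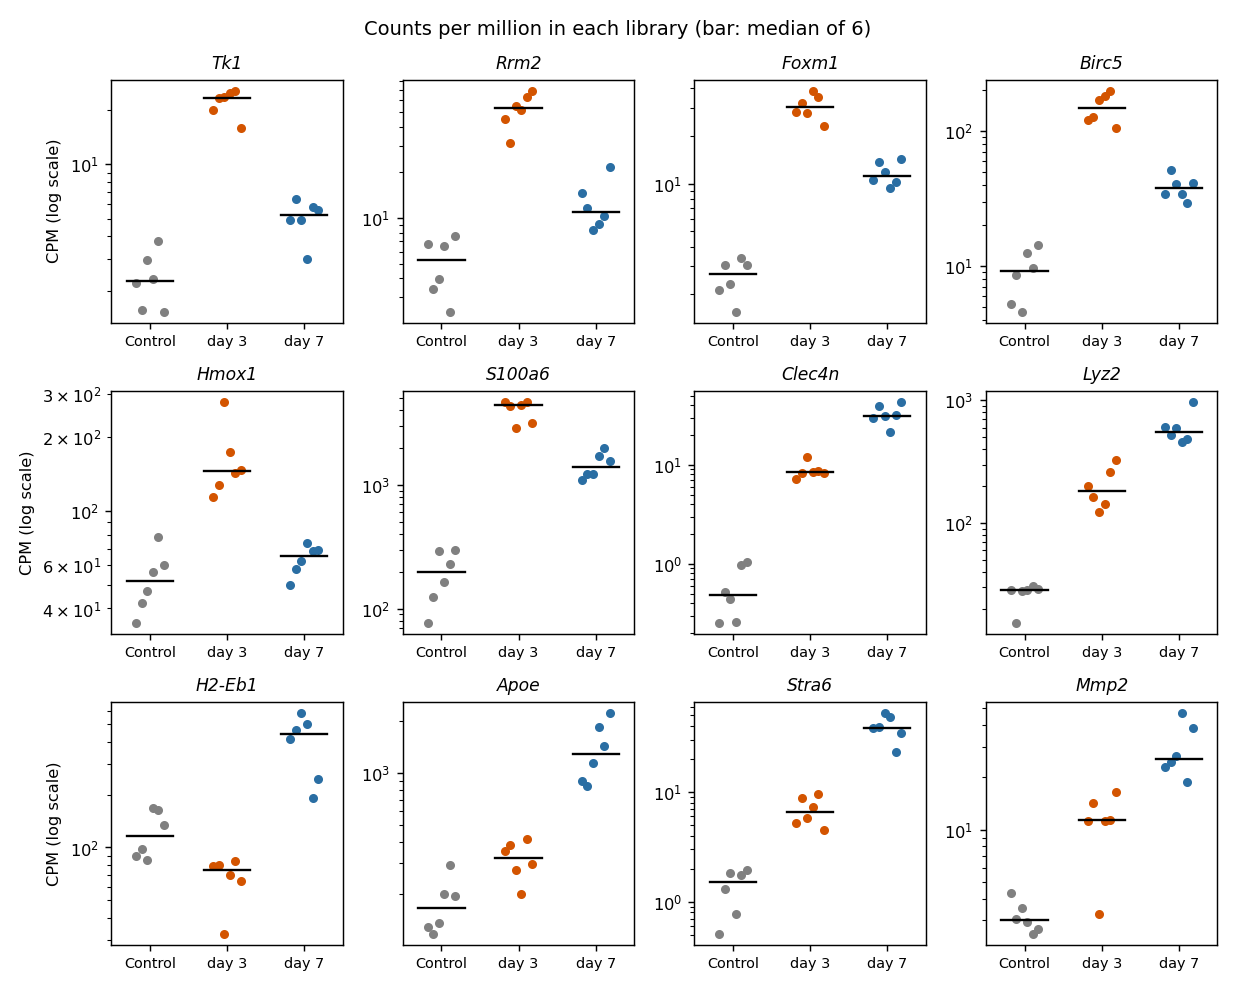
CPM on a log axis for 12 genes in each library of Control, day 3 and day 7, with a bar at the median of 6 libraries. Tk1, Rrm2, Foxm1, Birc5, Hmox1 and S100a6 were lower on day 7 than on day 3, and Clec4n, Lyz2, H2-Eb1, Apoe, Stra6 and Mmp2 were higher, with no overlap between the days.

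The summed level of the G2 and mitosis list was 1676 to 2182 CPM on day 3 and 539.5 to 858 CPM on day 7, and 219.6 to 321 CPM in Control. Day 7 lay between the other groups without touching either. In block 1a the median log2 fold change was -1.39 with 0 genes called. Without block 2b 23 members fell (median -1.47), and without the libraries that lay apart 37 fell. In a bulk section, fewer cells of a type and less RNA per cell cannot be told apart, so the fall does not say whether fewer cells divided or each held less of these transcripts.

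Promoters of cell cycle genes carry known elements: E2F sites in S phase genes, and CCAAT boxes with the CHR element, whose core is TTTGAA, in mitotic genes. Windows of 250 bases before to 50 after the start were searched in RefSeq's promoters of GRCm38.p6 on both strands, for CCAAT, for TTTGAA and for the E2F sites TTTGGCGC, TTTCGCGC, TTTCCCGC and TTTGCCGC, which can overlap each other on opposite strands. Windows were found for 38 of 50 S phase genes and 45 of 55 G2 and mitosis genes. TTTGAA was in 35 of 45 G2 and mitosis windows (77.8%), in 6 of 38 S phase windows (15.8%), and in 20.2% of all 27025 genes of the table. CCAAT was in 71.1%, 60.5% and 41.1% of the same sets. An E2F site was in 16 of 38 S phase windows (42.1%), in 4 of 45 G2 and mitosis windows (8.89%) and in 2.6% of all genes. These are shares of letters found and say nothing of binding in these kidneys.

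The 250 bases before the start are shown for 5 genes that fell, with the searched letters in capitals on whichever strand they were read, so that the reverse complement of a motif is also in capitals. Mcm5, a helicase subunit (log2 fold change -1.20, SE 0.22, adjusted p = 0.00221), and Cdc6, a licensing factor (log2 fold change -1.25, SE 0.34, adjusted p = 0.0462), were the S phase genes with the smallest adjusted p among those with an E2F site and a single window, and were chosen after their values were seen. The mitotic genes shown are those with the smallest adjusted p among the genes named above that met further conditions. Each had a single window and held both CCAAT and TTTGAA within these 250 bases. Genes not shown may hold both as well. All are written 5′ to 3′ along the gene. Mcm5 is at chr8:75109259-75109508 on the plus strand, and Cdc6 at chr11:98907901-98908150 on the plus strand. Cdc20 is at chr4:118437344-118437593 on the minus strand, Ube2c at chr2:164769679-164769928 on the plus strand and Top2a at chr11:99024190-99024439 on the minus strand.
Mcm5: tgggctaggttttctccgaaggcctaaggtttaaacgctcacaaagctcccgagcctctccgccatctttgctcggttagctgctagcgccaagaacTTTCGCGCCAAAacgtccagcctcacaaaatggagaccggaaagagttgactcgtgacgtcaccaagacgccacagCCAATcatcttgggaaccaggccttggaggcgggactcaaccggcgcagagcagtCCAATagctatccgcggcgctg
Cdc6: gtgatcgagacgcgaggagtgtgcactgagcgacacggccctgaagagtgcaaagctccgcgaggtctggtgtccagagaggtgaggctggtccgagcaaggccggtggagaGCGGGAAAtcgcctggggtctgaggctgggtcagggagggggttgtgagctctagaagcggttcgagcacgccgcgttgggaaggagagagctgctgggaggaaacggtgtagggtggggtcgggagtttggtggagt
Cdc20: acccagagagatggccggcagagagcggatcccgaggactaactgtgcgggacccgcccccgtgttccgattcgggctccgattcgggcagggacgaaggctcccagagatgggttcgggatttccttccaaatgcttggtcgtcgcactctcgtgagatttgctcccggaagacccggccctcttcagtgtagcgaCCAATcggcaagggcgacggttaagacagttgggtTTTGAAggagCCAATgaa
Ube2c: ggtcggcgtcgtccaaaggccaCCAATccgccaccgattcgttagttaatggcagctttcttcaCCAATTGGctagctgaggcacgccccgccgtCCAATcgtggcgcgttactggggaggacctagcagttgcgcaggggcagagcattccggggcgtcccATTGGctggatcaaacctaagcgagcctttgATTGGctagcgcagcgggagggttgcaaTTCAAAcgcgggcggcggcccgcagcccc
Top2a: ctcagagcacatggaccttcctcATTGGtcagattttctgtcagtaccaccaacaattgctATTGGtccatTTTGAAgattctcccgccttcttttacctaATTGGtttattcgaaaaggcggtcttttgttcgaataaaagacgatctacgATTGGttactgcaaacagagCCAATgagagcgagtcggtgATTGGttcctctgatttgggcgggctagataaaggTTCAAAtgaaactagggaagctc
In Mcm5 a pair of E2F sites overlap on opposite strands, and 2 CCAAT boxes lie nearer the start. In Cdc20, Ube2c and Top2a the TTTGAA nearest the start is 18, 29 and 23 bases before it, and CCAAT occurs 2, 6 and 6 times.

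A part of the macrophage genes rose. Of 40 macrophage and monocyte genes tested, 16 rose and 0 fell, and all 40 had a positive log2 fold change (median 0.87). Clec4n, the fungal sugar receptor dectin-2 (chromosome 6, 123229843 to 123247021, plus strand), measured 7.2 to 12 CPM on day 3, median 8.42, and 21.6 to 43.2 CPM on day 7, median 31.3 (log2 fold change 1.89, SE 0.22, adjusted p = 2.16e-05). Clec7a, its relative dectin-1, measured 2.81 to 16.7 CPM on day 3, median 13.3, and 29.8 to 49.1 CPM on day 7, median 40.1 (log2 fold change 1.70, SE 0.29, adjusted p = 0.00114). Lyz2, the lysozyme of macrophages and neutrophils, measured 123 to 327 CPM on day 3, median 182, and 458 to 969 CPM on day 7, median 554 (log2 fold change 1.57, SE 0.24, adjusted p = 3.04e-04). For each of these the lowest day 7 library was above the highest day 3 library. Reads of Lyz2 and its close copy Lyz1 may not be fully separable.

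Ms4a7, a membrane protein of tissue macrophages, had 4.16 to 12 CPM on day 3, median 8.17, and 16.9 to 45.2 CPM on day 7, median 26.6 (log2 fold change 1.79, SE 0.27, adjusted p = 3.08e-04). Ctss, the lysosomal protease cathepsin S, which trims the invariant chain of MHC class II, had 78.5 to 145 CPM on day 3, median 121, and 218 to 413 CPM on day 7, median 312 (log2 fold change 1.44, SE 0.23, adjusted p = 6.24e-04). Both were without overlap. Adgre1, which encodes the F4/80 antigen, overlapped at 8.09 to 16.8 CPM on day 3, median 10.8, and 13.9 to 43.9 CPM on day 7, median 22.6 (log2 fold change 1.09, SE 0.27, adjusted p = 0.0233); without UIRI d7 replicate 6 its adjusted p was 0.0736.

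The macrophage list summed to 1129.7 to 1807 CPM on day 3 and 2463 to 4318 CPM on day 7, with 448 to 649 CPM in Control. The 3 groups did not overlap. In block 1a the median was 0.90 with 0 genes called, and without the block 2b libraries 7 members rose (median 0.88).

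Among 30 genes of lipid-handling and scavenging macrophages, 4 rose and 1 fell, and the median of 0.07 was near that of all genes. Apoe, the lipid carrier apolipoprotein E, had 199 to 416 CPM on day 3, median 324, and 844 to 2231 CPM on day 7, median 1287 (log2 fold change 2.13, SE 0.31, adjusted p = 2.13e-04), without overlap. C1qa, C1qb and C1qc, the chains of complement C1q, which macrophages make, were the other 3. C1qc was at 27.9 to 91 CPM on day 3, median 47.6, and 66.7 to 214 CPM on day 7, median 122 (log2 fold change 1.28, SE 0.27, adjusted p = 0.00941). C1qa and C1qb changed by 1.6 and 1.01 on the log2 scale (adjusted p = 0.0219 and 0.0443); for C1qa, without UIRI d7 replicate 4 its adjusted p was 0.0651, and for C1qb, without UIRI d3 replicate 4 its adjusted p was 0.106. The member that fell was Hmox1, heme oxygenase-1, described below. Markers of reparative macrophages did not pass: Trem2, a lipid receptor, had 3.71 to 15.6 CPM on day 3, median 11.9, and 12.3 to 36.2 CPM on day 7, median 17 (log2 fold change 1.03, SE 0.35, adjusted p = 0.133), Mrc1, the mannose receptor, changed by 0.51 (adjusted p = 0.541), and Arg1, arginase, by -0.43 (adjusted p = 0.801). All 3 overlapped between the days.

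Some genes of MHC class II, which presents antigen to CD4 T cells, rose. Of 26 antigen-presentation and dendritic cell genes, 21 had enough counts to be tested. Among these 8 rose and 0 fell, with all 21 positive and a median of 1.15. Sparse genes could pass the count filter through groups where they were higher. H2-Eb1, a beta chain (chromosome 17, 34305867 to 34316674, plus strand), had 32.3 to 84.2 CPM on day 3, median 74.3, and 191 to 581 CPM on day 7, median 439.5 (log2 fold change 2.55, SE 0.35, adjusted p = 8.37e-05). H2-Aa, an alpha chain, had 28 to 74.8 CPM on day 3, median 40.4, and 126 to 395 CPM on day 7, median 282 (log2 fold change 2.45, SE 0.40, adjusted p = 7.19e-04), and H2-Ab1, its beta partner, had 45.8 to 89.1 CPM on day 3, median 66, and 115 to 416 CPM on day 7, median 307 (log2 fold change 2.06, SE 0.34, adjusted p = 7.19e-04). None of the 3 overlapped. On day 3 their medians lay below the Control medians of 116, 75.9 and 73.5 CPM, and on day 7 above them. H2 chains are similar in sequence, so some reads may be shared between them.

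Cd74, the invariant chain that guides class II molecules through the cell, had 30.2 to 161 CPM on day 3, median 81.5, and 112 to 778 CPM on day 7, median 382 (log2 fold change 2.04, SE 0.42, adjusted p = 0.00709), with overlap. Clec10a, a sugar receptor of dendritic cells and macrophages, changed by 1.56 (adjusted p = 0.0239), and without UIRI d7 replicate 2 its adjusted p was 0.102. The list summed to 410.2 to 603 CPM on day 3 and 872 to 2387 CPM on day 7, and 429 to 720.4 CPM in Control. Day 3 overlapped with Control, and all day 7 libraries were above both. In block 1a the median was 1.61 with 0 called, and without block 2b 3 members rose. The day 7 libraries were themselves spread, with UIRI d7 replicates 5 and 6 lowest in this list and in the T cell list.

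T cell transcripts were sparse, and a minority rose. Of 37 T and NK cell genes, 23 had enough counts to be tested, and of these 7 rose and 0 fell (median 1.41). A gene sparse on day 3 could pass the count filter through groups where it was higher. The lack of falls and the median may therefore partly reflect the filter. Trbc2, a constant region of the T cell receptor beta chain, had 0.225 to 3.09 CPM on day 3, median 1.35, and 3.44 to 11.5 CPM on day 7, median 6.69 (log2 fold change 2.17, SE 0.47, adjusted p = 0.0108). Cd3d, a signalling chain of that receptor, had 0 to 1.87 CPM on day 3, median 1.12, and 1.93 to 7.58 CPM on day 7, median 4.7 (log2 fold change 2.29, SE 0.54, adjusted p = 0.0176). Cxcr3, a chemokine receptor of effector T cells, had 0 to 1.22 CPM on day 3, median 0.278, and 0.386 to 4.71 CPM on day 7, median 3.88 (log2 fold change 2.77, SE 0.61, adjusted p = 0.0123). Trbc2 and Cd3d did not overlap between the days and Cxcr3 did. Cd4 changed by 1.76 (adjusted p = 0.0327) and without UIRI d7 replicate 2 its adjusted p was 0.0825, and Lck, the kinase that starts T cell signalling, changed by 1.41 (adjusted p = 0.0242) and without UIRI d3 replicate 4 its adjusted p was 0.0614. Cd8a, which marks cytotoxic T cells, was not called, at 0.786 to 2.92 CPM on day 3, median 1.16, and 0.695 to 2.77 CPM on day 7, median 1.6 (log2 fold change 0.22, SE 0.49, adjusted p = 0.916). Cd3e had too few counts to be tested. The summed level was 31.3 to 74.1 CPM on day 3 and 64.9 to 192 CPM on day 7, with overlap, and without the block 2b libraries 3 members rose. Without the pair of libraries that lay apart 3 rose.

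Of 21 B cell genes 9 had enough counts to be tested, and 1 rose, Cd22, by 2.24 (adjusted p = 0.0346). Without UIRI d7 replicate 4 its adjusted p was 0.0883. Cd79a, which every B cell needs for its receptor, was too low to be tested, with 0 CPM in every day 7 library. The list's summed level was 46 to 216 CPM on day 3 and 55.3 to 219 CPM on day 7.

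Among chemokines, of 26 ligands tested, 1 rose and 0 fell (median 0.29). That is 3.85% of the list, near the 2.6% of all tested genes. The gene that rose was Ccl8, also known as MCP-2, which draws monocytes and lymphocytes (chromosome 11, 82115185 to 82116799, plus strand). It had 0.337 to 6.7 CPM on day 3, median 4.08, and 11 to 79.3 CPM on day 7, median 33 (log2 fold change 3.23, SE 0.58, adjusted p = 0.0017), with no overlap and a Control median of 2.45 CPM. Ccl7, its neighbour on the same chromosome, had values in the other direction without passing the test, at 6.63 to 21.1 CPM on day 3, median 12, and 3.56 to 8.26 CPM on day 7, median 5.91 (log2 fold change -1.16, SE 0.33, adjusted p = 0.0551). Ccl2, the monocyte chemoattractant MCP-1, spread widely on day 7, at 16 to 46.6 CPM on day 3, median 32.2, and 3.9 to 116 CPM on day 7, median 51.1 (log2 fold change 0.66, SE 0.47, adjusted p = 0.608), and its lowest library was UIRI d7 replicate 4. Of 23 complement genes, 3 rose, the C1q chains given above. C3, the central component, was not called at 183 to 1107 CPM on day 3, median 289, and 447 to 1051 CPM on day 7, median 590.1 (log2 fold change 0.73, SE 0.39, adjusted p = 0.441). None of 43 interferon response genes was called by edgeR, and the median was 0.33. Psmb9, an interferon-induced proteasome subunit, had the smallest p among them, at 3.17 to 11.6 CPM on day 3, median 6.57, and 5.51 to 41.3 CPM on day 7, median 17 (log2 fold change 1.42, SE 0.43, adjusted p = 0.0803).

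The call among neutrophil genes depended on single libraries. Of 16 tested, 1 fell, Saa3, an acute phase protein. Its level was 1.22 to 312 CPM on day 3, median 2.34, and 0.455 to 4.95 CPM on day 7, median 1.37 (log2 fold change -4.65, SE 1.14, adjusted p = 0.0239). The highest value belonged to UIRI d3 replicate 3, and without UIRI d3 replicate 3 its adjusted p was 0.739. The call was also lost without UIRI d7 replicates 1, 2 or 3 in turn. UIRI d3 replicate 3 held the highest S100a8 too, a neutrophil calcium-binding protein, at 1388 CPM, where the group's median was 78.3 CPM on day 3 and 47.7 CPM on day 7. The median log2 fold change of the list was -1.0; it was -0.22 with 0 calls within block 1a, -1.68 with 4 lower without the block 2b libraries, -1.30 with 2 lower with the block as a covariate, and -1.05 with 1 lower without the pair of libraries that lay apart.

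**Figure D3:**
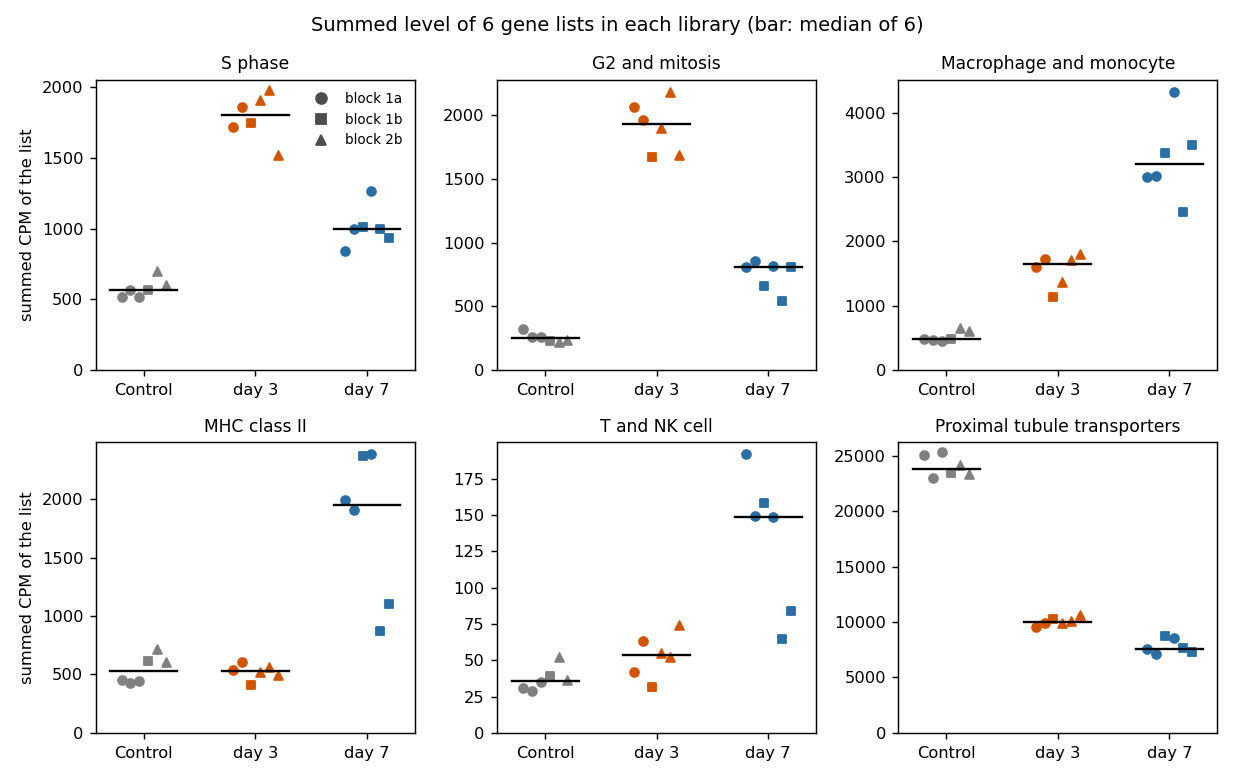
Summed CPM of 6 gene lists in each library of Control, day 3 and day 7; the shape gives the library block and the bar the median of 6 libraries. The cell cycle and proximal tubule transporter lists were lower and the macrophage and MHC class II lists higher in every day 7 library. The T and NK cell list overlapped between the days, and no day 7 library is in block 2b.

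A small part of the tubular injury genes passed the test. Of 35 tested, 1 rose and 2 fell (median -0.12). That is 8.57% of the list, where 2.6% of all tested genes passed. The list summed to 13572 to 15959 CPM on day 3 and 10664 to 12153 CPM on day 7, without overlap. The mean log2 level of its members did overlap, at 6.60 to 7.04 on day 3 and 6.38 to 6.84 on day 7. Havcr1, which encodes KIM-1, the injury marker of the proximal tubule, had 564 to 1610.4 CPM on day 3, median 944, and 189.6 to 894 CPM on day 7, median 745 (log2 fold change -0.57, SE 0.35, adjusted p = 0.52). Lcn2, or NGAL, a marker of injured distal tubule, had 47.4 to 534 CPM on day 3, median 101, and 47.5 to 218 CPM on day 7, median 108 (log2 fold change -0.61, SE 0.48, adjusted p = 0.659). Sox9, a transcription factor of regenerating tubule cells, had 82.8 to 307 CPM on day 3, median 168, and 126 to 224 CPM on day 7, median 194 (log2 fold change 0.06, SE 0.24, adjusted p = 0.956). The days overlapped for all 3, and both days lay far above the Control medians of 4.62, 2.52 and 5.74 CPM. S100a6, or calcyclin, a calcium-binding protein of proliferating and injured cells, fell, with 2867 to 4687 CPM on day 3, median 4395, and 1097 to 1973 CPM on day 7, median 1396 (log2 fold change -1.46, SE 0.29, adjusted p = 0.00493), without overlap. Krt20, a keratin of injured tubule, had 54.6 to 110.0 CPM on day 3, median 81.5, and 22.7 to 48 CPM on day 7, median 30.3 (log2 fold change -1.29, SE 0.34, adjusted p = 0.0399), and without UIRI d3 replicate 5 its adjusted p was 0.0954. Sox4, the member that rose, changed by 0.53 (adjusted p = 0.0487), and without UIRI d7 replicate 2 its adjusted p was 0.117.

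Genes of failed proximal tubule repair leaned upward with few calls. Of 23 tested, 2 rose and 0 fell, 22 had a positive log2 fold change, and the median was 0.48. The called share was 8.7%, beside 2.6% of all tested genes. Summed over this list, libraries held 1711 to 2333 CPM on day 3 and 2511 to 3028 CPM on day 7, without overlap. Between the days, the mean log2 level of its members did overlap. Dcdc2a, a doublecortin family member, had 59.9 to 73.7 CPM on day 3, median 68.3, and 75.5 to 152 CPM on day 7, median 123 (log2 fold change 0.81, SE 0.20, adjusted p = 0.0233), and without UIRI d7 replicate 2 its adjusted p was 0.0707. Sema5a, a semaphorin, changed by 0.81 (adjusted p = 0.0318), and without UIRI d7 replicate 4 its adjusted p was 0.086. Vcam1, the adhesion molecule that marks unrepaired proximal tubule cells, had 246 to 521 CPM on day 3, median 391, and 341 to 712 CPM on day 7, median 506 (log2 fold change 0.39, SE 0.22, adjusted p = 0.465). Its days overlapped, and the Control median was 27.2 CPM. Without the block 2b libraries 0 members rose, with a median of 0.51.

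Among 19 progenitor and regeneration transcription factors, 1 rose and 1 fell, Sox4 and Foxm1 in that order. The list summed to 1666 to 1987 CPM on day 3 and 2060 to 2762 CPM on day 7, without overlap. The mean log2 level of its members overlapped between the days. Sox11, a factor of developing kidney, had 11.5 to 46 CPM on day 3, median 32.9, and 46.8 to 117 CPM on day 7, median 52.4 (log2 fold change 0.97, SE 0.28, adjusted p = 0.0644). Its libraries did not overlap, yet the adjusted p missed the threshold. Of 30 targets of p53 or inhibitors of the cell cycle, 0 were higher and 1 fell, or 3.33%, near the 2.6% of all tested genes. The gene that fell was Ccnd1, cyclin D1 of the G1 phase, at 600.0 to 1004 CPM on day 3, median 784, and 289 to 754 CPM on day 7, median 372 (log2 fold change -0.90, SE 0.24, adjusted p = 0.0373); without UIRI d7 replicate 3 its adjusted p was 0.101. Cdkn1a, the inhibitor p21, had 66.1 to 77.5 CPM on day 3, median 69.1, and 42.5 to 109 CPM on day 7, median 54.1 (log2 fold change -0.13, SE 0.23, adjusted p = 0.888). Cdkn2a, which encodes p16 and ARF, had 0 to 2.35 CPM on day 3, median 1.59, and 1.49 to 6.41 CPM on day 7, median 4.08 (log2 fold change 1.51, SE 0.51, adjusted p = 0.126). Neither inhibitor was called.

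A small part of the matrix genes was called, and the share differed between the lists. Of 26 collagen chains 1 rose and 0 fell (median 0.30), a share of 3.85%, near the 2.6% of all tested genes. Col12a1, a collagen that sits on the surface of fibrils, had 8.15 to 22.4 CPM on day 3, median 11.2, and 21.1 to 67.1 CPM on day 7, median 42.9 (log2 fold change 1.79, SE 0.27, adjusted p = 3.14e-04). The fibril collagens Col1a1 and Col3a1 were already raised on day 3: Col1a1 had 411 to 654 CPM on day 3, median 541, and 464 to 809.7 CPM on day 7, median 605 (log2 fold change 0.23, SE 0.19, adjusted p = 0.67), and Col3a1 had 249 to 566 CPM on day 3, median 318, and 251 to 531 CPM on day 7, median 304 (log2 fold change -0.01, SE 0.23, adjusted p = 0.995). Their Control medians were 67.3 and 34.5 CPM, and their 2 days overlapped.

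Of 33 matrix glycoproteins and proteoglycans 3 rose and 0 fell (median 0.26), a share of 9.09% beside 2.6% of all tested genes. Mfap5, a microfibril protein, had 5.39 to 9.34 CPM on day 3, median 7.45, and 14.8 to 30 CPM on day 7, median 19.9 (log2 fold change 1.51, SE 0.31, adjusted p = 0.00614). Thbs2, thrombospondin-2, had 8.65 to 13.1 CPM on day 3, median 10.4, and 15.1 to 26 CPM on day 7, median 22.4 (log2 fold change 0.98, SE 0.22, adjusted p = 0.0132). Both were without overlap. Fn1, fibronectin, changed by 0.69 (adjusted p = 0.0243), and without UIRI d7 replicate 2 its adjusted p was 0.0858. Among 36 proteases, inhibitors and crosslinkers, 2 rose and 2 fell, a share of 11.1%. Mmp2, gelatinase A, had 3.26 to 16.4 CPM on day 3, median 11.3, and 18.8 to 46.9 CPM on day 7, median 25.6 (log2 fold change 1.39, SE 0.28, adjusted p = 0.0058), and Mmp12, the elastase of macrophages, had 1.92 to 7.94 CPM on day 3, median 4.78, and 11.7 to 23.6 CPM on day 7, median 17.9 (log2 fold change 1.90, SE 0.32, adjusted p = 0.00109). Neither overlapped. Timp3, an inhibitor of such proteases, changed by -0.54 (adjusted p = 0.0497), and without UIRI d3 replicate 4 its adjusted p was 0.132. Loxl4, a crosslinking enzyme, changed by -1.28 (adjusted p = 0.0298), and without UIRI d7 replicate 3 its adjusted p was 0.076.

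Fibroblast genes numbered 27 tested, of which 2 rose and 0 fell (median 0.15), a share of 7.41% beside 2.6% of all tested genes. Fap, a surface protease of activated fibroblasts, had 0 to 0.778 CPM on day 3, median 0.431, and 0.809 to 4.42 CPM on day 7, median 2.31 (log2 fold change 2.42, SE 0.46, adjusted p = 0.00322), a low level without overlap. Thy1, a surface protein of fibroblasts and T cells, changed by 0.92 (adjusted p = 0.0456), and without UIRI d3 replicate 4 its adjusted p was 0.11. Acta2, the smooth muscle actin of myofibroblasts, was not called at 224 to 326 CPM on day 3, median 314, and 171 to 521 CPM on day 7, median 247 (log2 fold change -0.08, SE 0.28, adjusted p = 0.945). Of 21 TGF-beta ligands, activators and targets, 3 rose, a share of 14.3%. Ltbp3, which holds latent TGF-beta in the matrix, had 27.1 to 40.6 CPM on day 3, median 31.4, and 56.7 to 75.7 CPM on day 7, median 62.5 (log2 fold change 0.97, SE 0.15, adjusted p = 5.28e-04), without overlap. The ligands Tgfb2 and Tgfb3 changed by 1.08 (adjusted p = 0.0242) and 0.87 (adjusted p = 0.0413); for Tgfb2, without UIRI d3 replicate 4 its adjusted p was 0.0712, and for Tgfb3, without UIRI d7 replicate 1 its adjusted p was 0.108. Tgfb1 was not called, at 0.51 (adjusted p = 0.381). Ccn2, a target of TGF-beta and YAP, spread widely, at 8.75 to 185 CPM on day 3, median 99.7, and 10.2 to 619 CPM on day 7, median 337 (log2 fold change 1.63, SE 0.78, adjusted p = 0.357); its lowest value on each day came from UIRI d3 replicate 2 and UIRI d7 replicate 4.

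Proximal tubule transporters were mostly at or below their day 3 level. Of 45 transporters tested, 1 rose and 2 fell (median -0.38), and 33 had a negative log2 fold change. The list summed to 9552 to 10641 CPM on day 3 and 7147 to 8759 CPM on day 7, without overlap. The mean log2 level of its members overlapped between the days. Slc34a1 had 2014 to 2665 CPM on day 3, median 2578, and 1284 to 2296 CPM on day 7, median 1462 (log2 fold change -0.63, SE 0.22, adjusted p = 0.144), against a Control median of 5471 CPM. Its days overlapped, and neither reached the Control median. Slco1a6, an organic anion transporter, fell, with 88.1 to 106 CPM on day 3, median 96.4, and 47.6 to 82.5 CPM on day 7, median 57.8 (log2 fold change -0.67, SE 0.16, adjusted p = 0.0163), without overlap. Slc5a12, a lactate transporter, changed by -0.85 (adjusted p = 0.0163), and without UIRI d7 replicate 2 its adjusted p was 0.0505. Slc22a7, the organic anion transporter OAT2, was the gene that rose, at 0.356 to 2.47 CPM on day 3, median 0.583, and 0.541 to 9.41 CPM on day 7, median 3.37 (log2 fold change 2.0, SE 0.50, adjusted p = 0.0267), far below its Control median of 123 CPM; without UIRI d7 replicate 3 its adjusted p was 0.114.

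Of 50 proximal tubule enzymes, endocytic receptors and identity factors, 0 rose and 4 fell (median -0.44). That median was -0.18 within block 1a. The 4 were Acsm1, Ass1, Ndrg1 and Sord, and each lost its call without a given library: for Ass1, which makes argininosuccinate, without UIRI d3 replicate 4 its adjusted p was 0.0675; for Sord, sorbitol dehydrogenase, without UIRI d7 replicate 2 its adjusted p was 0.118; for Acsm1, an acyl-CoA synthetase, without UIRI d7 replicate 2 its adjusted p was 0.0985; for Ndrg1, without UIRI d3 replicate 4 its adjusted p was 0.0562. Their changes were -0.78, -0.91, -0.71 and -0.68 on the log2 scale (adjusted p = 0.0352, 0.0228, 0.0246 and 0.044). Lrp2, the endocytic receptor megalin, had 444 to 807 CPM on day 3, median 571, and 259.8 to 626 CPM on day 7, median 403 (log2 fold change -0.46, SE 0.35, adjusted p = 0.635). Hnf4a, the transcription factor that sets proximal tubule identity, had 56.4 to 186 CPM on day 3, median 100.5, and 29.3 to 122 CPM on day 7, median 80.1 (log2 fold change -0.44, SE 0.27, adjusted p = 0.526). Neither passed the test, and the Control medians were 1544 and 235 CPM.

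Energy genes of the tubule gave few calls, at 2.27% of the fatty acid oxidation and peroxisome list beside 2.6% of all tested genes. Of 44 fatty acid oxidation and peroxisome genes 1 fell, Acot4, a peroxisomal thioesterase, at 14.4 to 25.3 CPM on day 3, median 18.3, and 8.46 to 13.1 CPM on day 7, median 10.1 (log2 fold change -0.81, SE 0.17, adjusted p = 0.00941), without overlap. Cpt1a, which lets fatty acids into mitochondria, changed by -0.21 (adjusted p = 0.681), and Ppargc1a, the regulator of mitochondrial biogenesis, by 0.09 (adjusted p = 0.877). Of 74 nuclear subunits of the respiratory chain, none was called by edgeR, and 69 had a negative log2 fold change, with a median of -0.19. Of 13 messenger RNAs of the mitochondrial genome, 8 passed the count filter and were tested. Among these 2 fell, and all 8 were negative (median -0.76). mt-Nd5, a subunit of complex I, had 500.2 to 784 CPM on day 3, median 558, and 332 to 393 CPM on day 7, median 353 (log2 fold change -0.78, SE 0.16, adjusted p = 0.00671), without overlap. mt-Nd2 changed by -0.78 (adjusted p = 0.0399), and without UIRI d3 replicate 4 its adjusted p was 0.122. The median of these 8 was -0.46 within block 1a and -0.43 without the block 2b libraries.

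Few genes of the later nephron segments passed the test, where 2.6% of all tested genes did. Of 15 thick ascending limb, 15 distal convoluted and connecting tubule, 14 principal cell and 16 intercalated cell genes, 1 fell and 0 rose, with medians of -0.15, -0.01, -0.02 and 0.14. The distal convoluted and connecting tubule list summed to 2100 to 2820 CPM on day 3 and 1417 to 2049 CPM on day 7, without overlap. Its mean log2 level overlapped between the days, as did the sums of the other lists here. The gene that fell was Klk1, kallikrein, at 409 to 970.3 CPM on day 3, median 545, and 150.3 to 447 CPM on day 7, median 323 (log2 fold change -1.04, SE 0.25, adjusted p = 0.0233); without UIRI d3 replicate 5 its adjusted p was 0.0776. Umod had 1142 to 2471 CPM on day 3, median 1266, and 775 to 1059 CPM on day 7, median 889 (log2 fold change -0.72, SE 0.23, adjusted p = 0.0927), without overlap and without a call. Egf, made by the same segments, had 18 to 26.9 CPM on day 3, median 24.2, and 12.5 to 24.3 CPM on day 7, median 17.4 (log2 fold change -0.40, SE 0.30, adjusted p = 0.626), against a Control median of 603 CPM. Slc12a3, the thiazide-sensitive transporter, changed by -0.19 (adjusted p = 0.807), and Aqp2, the water channel of principal cells, by -0.49 (adjusted p = 0.704).

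**Figure D4:**
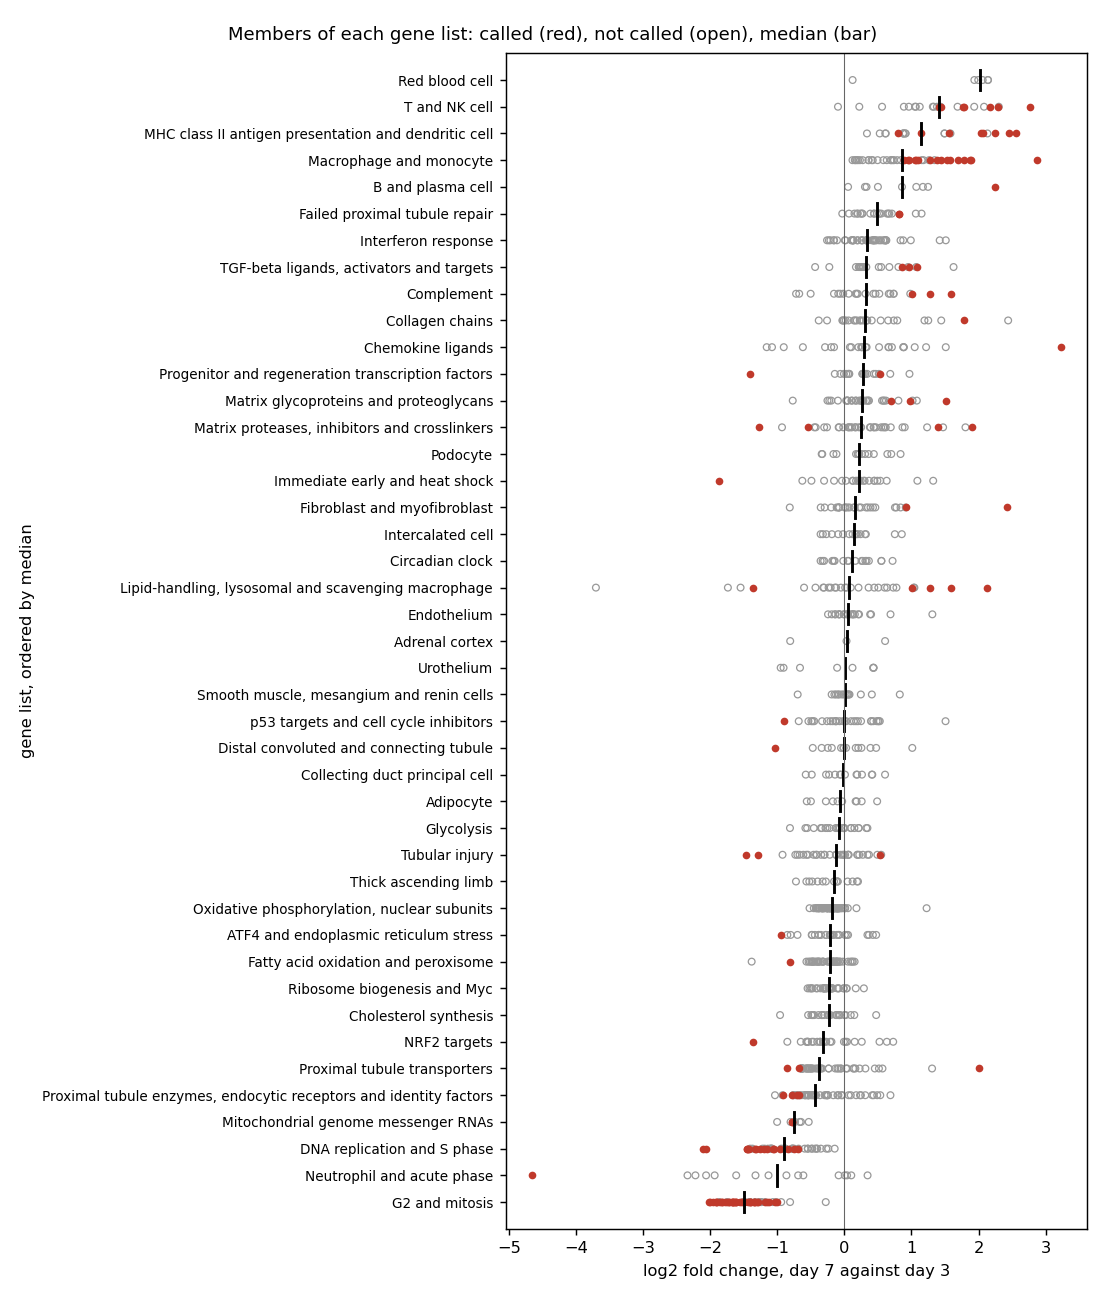
Log2 fold change of day 7 against day 3 for every tested member of 43 gene lists, with called members in red, other members as open circles and a bar at each list's median. The median is lowest for G2 and mitosis (-1.50) and highest for red blood cell genes (2.03), none of which was called.

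In each of 3 lists of stress genes a single gene was called, a share near the 2.6% of all tested genes. Of 25 targets of NRF2, the regulator of antioxidant genes, 0 rose and 1 fell. That was Hmox1, which breaks down heme, at 114 to 279 CPM on day 3, median 145, and 50.1 to 73.8 CPM on day 7, median 65.6 (log2 fold change -1.37, SE 0.23, adjusted p = 7.87e-04). Its days did not overlap, and the Control median was 51.7 CPM. Of 28 ATF4 and endoplasmic reticulum stress genes, 1 fell, Psat1, an enzyme of serine synthesis, at 44 to 50.3 CPM on day 3, median 47.4, and 15.6 to 33.7 CPM on day 7, median 24.1 (log2 fold change -0.95, SE 0.21, adjusted p = 0.0137). Of 23 immediate early and heat shock genes, 1 fell, Fosl1, the AP-1 subunit FRA-1, at 3.0 to 8.57 CPM on day 3, median 6.98, and 0.459 to 2.83 CPM on day 7, median 1.76 (log2 fold change -1.87, SE 0.43, adjusted p = 0.0151). Psat1 and Fosl1 did not overlap between the days. Jun, another AP-1 subunit, was higher in every day 7 library but was not called, at 112 to 179 CPM on day 3, median 148, and 184 to 246 CPM on day 7, median 207 (log2 fold change 0.54, SE 0.20, adjusted p = 0.192).

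No member was called by edgeR among 34 ribosome biogenesis genes (median -0.23), 25 cholesterol synthesis genes (-0.23), 24 glycolysis genes (-0.08) or 18 circadian clock genes (0.11). Myc, which drives ribosome biogenesis, had 3.26 to 9.21 CPM on day 3, median 3.69, and 2.59 to 12.2 CPM on day 7, median 4.43 (log2 fold change 0.29, SE 0.44, adjusted p = 0.859). Nor was any called among 23 endothelial genes (median 0.05), 15 podocyte genes (0.22) and 16 smooth muscle, mesangial and renin genes (0.00). Pecam1, an adhesion molecule of endothelium, changed by 0.05 (adjusted p = 0.961), and Nphs1, nephrin of the podocyte, by 0.26 (adjusted p = 0.787).

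Markers of tissue next to the kidney varied between libraries. Adipocyte genes summed to 53.1 to 157 CPM on day 3 and 36.6 to 159 CPM on day 7, urothelial genes to 18.9 to 157 and 17.6 to 135 CPM, and adrenal cortex genes to 17.5 to 25.6 and 18.9 to 25.2 CPM. The days overlapped in all 3, and 0 of 10, 8 and 3 members were called. Red blood cell genes summed to 53.3 to 313 CPM on day 3 and 105 to 1447 CPM on day 7, with a median log2 fold change of 2.03 over 6 genes and 0 calls. UIRI d7 replicate 6 held the most, and the share of hemoglobin counts did not differ between the days after adjustment (exact p = 0.0303, adjusted 0.0909). The part of blood or of these tissues in the other results was not tested.

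The largest rises lay partly outside the lists. Serpina6, the corticosteroid-binding globulin (chromosome 12, 103646630 to 103657212, minus strand), had the largest rise of a gene named by rule, at 0.143 to 1.37 CPM on day 3, median 0.736, and 4.71 to 21.6 CPM on day 7, median 9.54 (log2 fold change 3.86, SE 0.51, adjusted p = 7.01e-05). Stra6, a receptor that takes up retinol (chromosome 9, 58063788 to 58153996, plus strand), had 4.49 to 9.55 CPM on day 3, median 6.54, and 22.9 to 52.3 CPM on day 7, median 38.3 (log2 fold change 2.52, SE 0.31, adjusted p = 4.48e-05). Nkd2, an inhibitor of Wnt signalling (chromosome 13, 73818534 to 73847631, minus strand), had 3.71 to 8.34 CPM on day 3, median 6.8, and 21 to 56.2 CPM on day 7, median 25.4 (log2 fold change 2.24, SE 0.26, adjusted p = 2.16e-05). All day 7 libraries were above all day 3 libraries for these 3, as the naming rule required. The Control medians were 0.0426, 1.52 and 2.59 CPM, below either day. Sorcs1, a sorting receptor (chromosome 19, 50143299 to 50678646, minus strand), had 0.655 to 1.46 CPM on day 3, median 1.04, and 3.11 to 9.99 CPM on day 7, median 6.89 (log2 fold change 2.62, SE 0.42, adjusted p = 5.75e-04). Cpxm2, a protein of the carboxypeptidase family (chromosome 7, 132032687 to 132154739, minus strand), had 1.34 to 4.8 CPM on day 3, median 2.49, and 5.95 to 21 CPM on day 7, median 11.5 (log2 fold change 2.14, SE 0.40, adjusted p = 0.00251). These also did not overlap, which was again a condition of the rule.

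A second cohort of the series, with libraries titled WT_IRd3 (n = 6) and WT_IRd7 (n = 6), gave the same comparison in other libraries; the sex, age and surgery of its mice are not stated separately, and its counts were made on another genome build. There 1330 of 15543 tested genes were called (8.56%), 701 higher (4.51%) and 629 lower (4.05%). Of the 409 genes, 408 were tested there, 402 had the same direction and 300 were called in the same direction. The 300 are 73.5% of the first cohort's calls tested there and 22.6% of the second's calls. Of all genes tested in both cohorts, 69.5% had the same direction. No gene was called in opposite directions. Across the 15263 genes tested in both, which are not independent, the log2 fold changes had a Pearson r of 0.63. Tk1 changed by -1.55 there, Ube2c by -1.80, Clec4n by 2.15, H2-Eb1 by 1.90, Ccl8 by 3.17 and Stra6 by 3.21. Of the G2 and mitosis genes 52 of 55 fell there, with a median of -1.40. Several lists with few calls in the first cohort had more there. Of 23 failed-repair genes 14 rose and 0 fell. Of 26 collagen chains 10 rose and 1 fell, and of 32 matrix glycoproteins and proteoglycans 12 rose and 0 fell. Of 36 proteases, inhibitors and crosslinkers 11 rose and 1 fell. Of 26 chemokines 8 rose and 3 fell, and of 43 interferon response genes 7 rose and 0 fell. Krt20 changed by 0.01 (adjusted p = 0.979) and Saa3 by 0.89 (adjusted p = 0.312). Neither was among the genes whose difference between the cohorts was called.

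A test of the difference between the cohorts, over 15631 genes, found 4 (0.0256%), beside 507 (3.24%) at an unadjusted p under 0.05. The 4 were all hemoglobin chains: Hba-a1, Hba-a2, Hbb-bs and Hbb-bt. Hba-a2, an alpha chain, had 4.39 to 23 CPM on day 3, median 7.0, and 7.58 to 111 CPM on day 7, median 31.7 in the first cohort (log2 fold change 2.14). In the second it had 15.4 to 52.5 CPM on day 3 and 4.02 to 12.4 CPM on day 7 (log2 fold change -2.27), so that the days ran in opposite directions. The difference was 4.42 on the log2 scale (SE 0.73, adjusted p = 0.0215). Without the block 2b libraries 0 genes differed. Copies of the same chain are near identical, so their reads cannot be fully told apart.

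**Figure D5:**
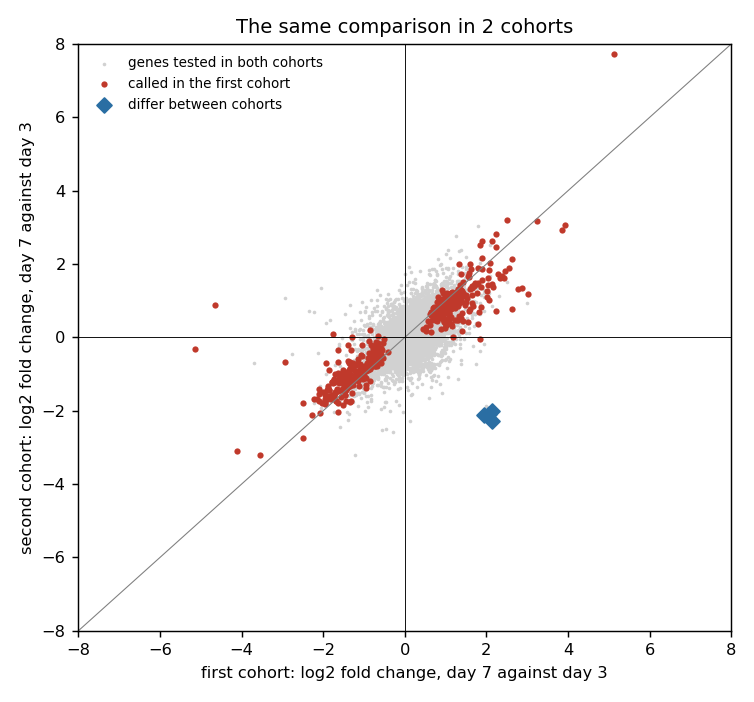
Log2 fold change of day 7 against day 3 in the first cohort (x axis) and the second (y axis) for 15263 genes, with the 408 tested first-cohort calls in red and the 4 genes that differ between cohorts as blue diamonds. The sign was the same in both cohorts for 402 of the 408, where 69.5% of all genes tested in both had the same sign. The hemoglobin genes lie in the lower right.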

How the data were processed

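RNA of 12 kidney libraries (UIRI d3 and UIRI d7, n = 6 each) was compared, with Control and UIRI+Nx d7 libraries of the same cohort in the fit. The values are raw counts per gene as deposited by the authors, 1 column per library, over 48795 genes; per the labels' protocols they are 3′ end libraries (QuantSeq FWD). Per the submitters' processing notes, Trimmomatic, STAR and HTSeq 0.6.1 were used with GRCm38 for the first cohort, and STAR 2.7.11b with GRCm39 for the second. Strand setting and annotation release: not given in the sources used here. Genes that overlap on opposite strands may share reads, and 3′ end counts reflect the ends the annotation holds. A single column without a group was not used.

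Groups came from sample titles, joined to columns by the library number. The 24 first-cohort libraries in 4 groups were fitted with edgeR 4.0.16 (quasi-likelihood F test, TMM scaling, filterByExpr) in R 4.3.3, Benjamini-Hochberg threshold 0.05. CPM use TMM-scaled totals, and an SE is the log2 fold change over the square root of F. In a simulation on these libraries with 200 changed genes, false calls stayed near the threshold. Its counts were drawn from the fitted model without block effects or outlying libraries, so it does not test how these affect the calls. The second cohort was fitted in the same way, and cohorts were compared by an interaction in a joint fit. Library measures were compared with exact permutation tests. Positions are from GENCODE vM21 and promoters from RefSeq, both GRCm38. Symbols were missing for 446 identifiers.

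Blocks were inferred from the numbers that the table's columns carry and are not named as batches in the labels. Alternatives were other scalings, DESeq2 1.42.0, no filter, the 12 libraries alone, blocks, and each library left out. The members and the 43 gene lists were chosen with earlier results of these data known. Genes were named by rule: the 12 largest changes in each direction among called genes without overlap and with a group mean of at least 5 CPM, up to 5 members of each list by adjusted p, and a fixed set of markers, leaving out predicted genes, immune receptor segments and mitochondrial, ribosomal and histone genes from the first part. Not all genes so named are described, and a few others were chosen after their values were seen.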

Additional observations from a re-analysis of the deposited data

Results flagged for a closer look

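For each gene named with a value and for the library measures, a library of UIRI d3 or UIRI d7 was marked when it lay further from the other 5 than Dixon's criterion allows. This marked 26 of 268 groups of values, or 9.7%. The criterion is set to mark about 5% of groups of normally distributed values. CPM need not be normal and the genes share the same libraries, so the 9.7% was not tested against chance. Values are given against the range of the other 5 libraries. UIRI d3 replicate 3 was highest for Aqp2 at 786 CPM against 118 to 231, C3 at 1107 CPM against 183 to 372, Clec4n at 12 CPM against 7.2 to 8.7, Hmox1 at 279 CPM against 114 to 175, Lcn2 at 534 CPM against 47.4 to 193, S100a8 at 1388 CPM against 22.1 to 155 and Saa3 at 312 CPM against 1.22 to 9.25. The same library was lowest for Clec7a at 2.81 CPM against 12.2 to 16.7 and Slc34a1 at 2014 CPM against 2518 to 2665. UIRI d7 replicate 4, which also lay apart on the first principal component, was highest for Ass1 at 156 CPM against 77.7 to 99.7, Aunip at 6.08 CPM against 2.02 to 3.08, Sema5a at 472 CPM against 232 to 296 and Sox11 at 117 CPM against 46.8 to 55.3. It was lowest for Ndrg1 at 1059 CPM against 1966 to 2256. In UIRI d3 replicate 6 the highest value was found for Cd79a at 0.0583 CPM against 0 in the others, Col12a1 at 22.4 CPM against 8.15 to 13.3, Myc at 9.21 CPM against 3.26 to 4.06 and Umod at 2471 CPM against 1142 to 1427. UIRI d3 replicate 4 held the highest Hba-a1 at 27.8 CPM against 6.7 to 14.6. UIRI d7 replicate 5 held the highest Acta2 at 521 CPM against 171 to 271 and Ccnd1 at 754 CPM against 289 to 442. Its value was lowest for Thy1 at 12.2 CPM against 19.2 to 22.8. UIRI d7 replicate 3 was highest for Ltbp3 at 75.7 CPM against 56.7 to 63.7. UIRI d7 replicate 6 was highest for Cdc20 at 18.2 CPM against 7.51 to 9.41, Il24 at 0.982 CPM against 0 to 0.173 and Lyz2 at 969 CPM against 458 to 601. Of these genes 15 were called between the days, and 2 lost the call without the marked library: Saa3 and Sema5a.

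The 4 hemoglobin chains differed between the cohorts in their day 7 against day 3 difference, tested as an interaction in edgeR. The difference (first minus second cohort, log2) was 4.42 for Hba-a2, 4.14 for Hba-a1, 4.14 for Hbb-bt and 4.06 for Hbb-bs. In the first cohort alone none of the 4 was called, and in the second all 4 were lower on day 7 (largest adjusted p = 0.00342). The part of blood left in the tissue was not tested.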

How the results depend on the processing

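None of the 88 named genes that were called changed sign, in 1936 pairs of a gene and an alternative. The alternatives reuse the libraries that gave the calls, so a kept sign was largely set by the selection. Of 38 named genes that were not called, 8 changed sign, in 31 of 836 pairs: Acta2, Aqp2, Col3a1, Hnf4a, Lcn2, Myc, Pecam1 and Sox9. Without UIRI d3 replicate 3 alone, the log2 fold change of Lcn2 went from -0.61 to 0.15 and that of Aqp2 from -0.49 to 0.26. The genes changed (409, 195 higher and 214 lower) numbered 714 by DESeq2 (343 and 371), 135 without the UIRI d3 libraries of block 2b (54 and 81), and 0 within block 1a in either direction, where edgeR gave 1013 unadjusted p under 0.05. Under total counts alone 141 were lower, and without the 2 libraries that stand apart, a setting chosen after seeing the data, 129 were higher. Leaving out each library in turn gave 247 to 405 genes, 114 to 197 higher and 128 to 239 lower. With the replicate number as a block, 164 genes were called, 56 higher and 108 lower, but the numbers do not pair the libraries: deviations of equal numbers correlated from -0.37 to 0.31, and 0 replicates correlated best with their own number. The genes that differ between the cohorts numbered 7 by DESeq2, which added Alas2, Fos and Serpina1b, and 0 without the block 2b libraries. The mitochondrial share differed by -1.67 to -1.24 percentage points and the hemoglobin share by 0.0253 to 0.0572 when each library was left out; the adjusted p passed 0.05 without UIRI d7 replicate 1 for the former (0.0260) and without UIRI d7 replicate 2 for the latter (0.0390). Relative log expression scaling, no filter on low counts and the 12 libraries alone gave 408, 328 and 325 genes. Of 88 named genes that were called, 59 kept the call without each single library. At these depths Cd3e and Cd79a had too few counts to be tested.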

Other observations

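A few low-count genes that passed the test fell outside the naming rule, which asks for a group mean of 5 CPM, and are named here after their values were seen. Col10a1, the collagen of hypertrophic cartilage, had 0 to 0.172 CPM on day 3, median 0, and 1.03 to 3.18 CPM on day 7, median 1.96 (adjusted p = 0.00114), and it was called in the second cohort as well (adjusted p = 7.43e-06). Its day 3 libraries were at or near 0, so no fold is given. Il24, a cytokine of the interleukin-10 family, moved the other way, with 1.34 to 3.92 CPM on day 3, median 2.82, and 0 to 0.982 CPM on day 7, median 0.0541 (adjusted p = 0.00127). Crct1, a gene of the epidermal differentiation complex, had 3.03 to 6.07 CPM on day 3, median 3.9, and 0 to 1.15 CPM on day 7, median 0.332 (adjusted p = 4.55e-04). The days did not overlap for any of the 3, and both genes that fell were also called lower in the second cohort (adjusted p = 4.83e-04 and 8.92e-06).

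Both of the next genes were likewise named after their values were seen. Pltp, the phospholipid transfer protein, which moves lipids between lipoproteins, rose beside Apoe, with 4.55 to 5.68 CPM on day 3, median 4.99, and 13 to 21.2 CPM on day 7, median 15.2 (log2 fold change 1.64, SE 0.21, adjusted p = 6.56e-05). Spc24, a kinetochore subunit that is not in the mitosis list, fell, with 34.5 to 52 CPM on day 3, median 37.7, and 11.4 to 18.8 CPM on day 7, median 15.7 (log2 fold change -1.35, SE 0.17, adjusted p = 5.74e-05). Neither overlapped between the days.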
